A study of Homo sapiens with 2 samples.

Results

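The 10 genes that switch on the checkpoint kinase ATR and hand its signal to CHK1 were examined among 20037 protein-coding genes of RefSeq GRCh38.p14. They are ATR, ATRIP, TOPBP1, ETAA1, RAD9A, RAD1, HUS1, RAD17, CHEK1 and CLSPN. They were picked by function, with no measured value in the rule, but with earlier results of these data known. For each gene, every merged interval inside it or within 100 kb of either end was taken from both deposited peak lists. This gave 10 intervals with siEWS-FLI, of 6370 in that list, and 33 with siNEG, of 16284. Coordinates of intervals are on hg38 and count from 1.

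Both libraries came from a single established Ewing sarcoma cell line, TC32, and were made by CUT&Tag, in which a transposase tethered to an antibody tags the DNA around the antibody's target. The target was EWS-FLI, the oncogenic fusion protein of Ewing sarcoma, which joins part of EWSR1 to the DNA-binding part of the ETS factor FLI1. One group was TC32 treated with siEWS-FLI and the other TC32 treated with siNEG, with 1 library each. The labels spell out neither agent and do not name the antibody, and siNEG is read here as the comparison arm. The study concerns ATR inhibition with cisplatin in this tumour, which is the context for looking at ATR's own pathway genes. With 1 library a group no difference below has a replicate check and none was tested. No measurement of the RNA of these genes or of the amount of fusion is in the sources used here. All intervals in parentheses are 95% limits for counting error only.

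ATR answers replication stress. Single-stranded DNA coated with the protein RPA recruits ATR through its partner ATRIP, and RAD17, with small subunits of replication factor C, loads the ring-shaped RAD9A-RAD1-HUS1 clamp at the junction with double-stranded DNA. TOPBP1, brought in by the clamp, and ETAA1, bound to RPA, each stimulate the kinase. Claspin, the product of CLSPN, then holds CHK1, the product of CHEK1, so that ATR can phosphorylate it.

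The stretches before 4 of the starts are given because the results turn on them: ATR heads the pathway, RAD1 had the strongest own-promoter site that was called with siNEG alone, CLSPN had the strongest one called in both libraries, and ETAA1 had the weakest one. They are RefSeq sequence on GRCh38.p14, read 5′ to 3′ on the gene's strand up to the base before the listed start, with GGAA and its complement TTCC, the core of ETS factor sites, in capitals.
ATR (minus strand, chr3:142578734-142578983): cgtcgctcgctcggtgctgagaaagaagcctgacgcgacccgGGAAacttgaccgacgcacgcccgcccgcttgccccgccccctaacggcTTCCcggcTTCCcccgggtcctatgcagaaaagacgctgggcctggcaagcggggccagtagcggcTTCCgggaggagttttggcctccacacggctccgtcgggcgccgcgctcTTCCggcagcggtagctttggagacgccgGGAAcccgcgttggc
RAD1 (minus strand, chr5:34915505-34915710): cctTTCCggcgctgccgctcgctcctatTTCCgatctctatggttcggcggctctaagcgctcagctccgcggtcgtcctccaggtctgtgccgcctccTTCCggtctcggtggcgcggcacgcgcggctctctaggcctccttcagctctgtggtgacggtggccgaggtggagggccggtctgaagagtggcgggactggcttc
CLSPN (minus strand, chr1:35769979-35770094): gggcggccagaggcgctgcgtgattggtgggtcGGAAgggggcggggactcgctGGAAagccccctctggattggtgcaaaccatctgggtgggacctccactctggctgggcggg
ETAA1 (plus strand, chr2:67397083-67397332): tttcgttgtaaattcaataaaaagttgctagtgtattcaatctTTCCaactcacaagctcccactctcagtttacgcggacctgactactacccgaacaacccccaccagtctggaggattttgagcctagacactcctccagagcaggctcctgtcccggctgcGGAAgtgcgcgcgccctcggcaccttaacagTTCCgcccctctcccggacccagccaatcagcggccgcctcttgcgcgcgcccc
The RAD1 stretch is the whole gap of 206 bases between RAD1 and BRIX1, a ribosome assembly gene that runs the other way, and lies within the longer gene TTC23L, while the CLSPN stretch is the gap of 116 bases to the divergent transcript CLSPN-DT. The siNEG summit lay inside the ATR, RAD1 and ETAA1 stretches.

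Almost all of the 10 promoters carried a site in the siNEG library, and most of these sites were not called in the siEWS-FLI library. A promoter site is an interval whose summit lies within 1 kb of a listed start of the gene. With siEWS-FLI 2 of the 10 genes had one, CLSPN and RAD17, against 12.3% of all protein-coding genes. With siNEG 9 of the 10 had one, all but TOPBP1, against 34.7% of all protein-coding genes. Of the 9 genes with a siNEG promoter site, 2 also had a siEWS-FLI site (22.2%, 2.81 to 60.0), and over all genes with a siNEG promoter site this share was 32.4%. The limits of the first share take in the second. The summit pileup, counted as raw extended reads covering the summit, had a median of 8 in the 9 siNEG sites and of 12 over the 6944 genes with one. The strongest, 28 reads at CLSPN, exceeded the sites of 77.5% of those genes, and the weakest, 5 reads at ETAA1, exceeded 3.18%.

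**Figure D1:**
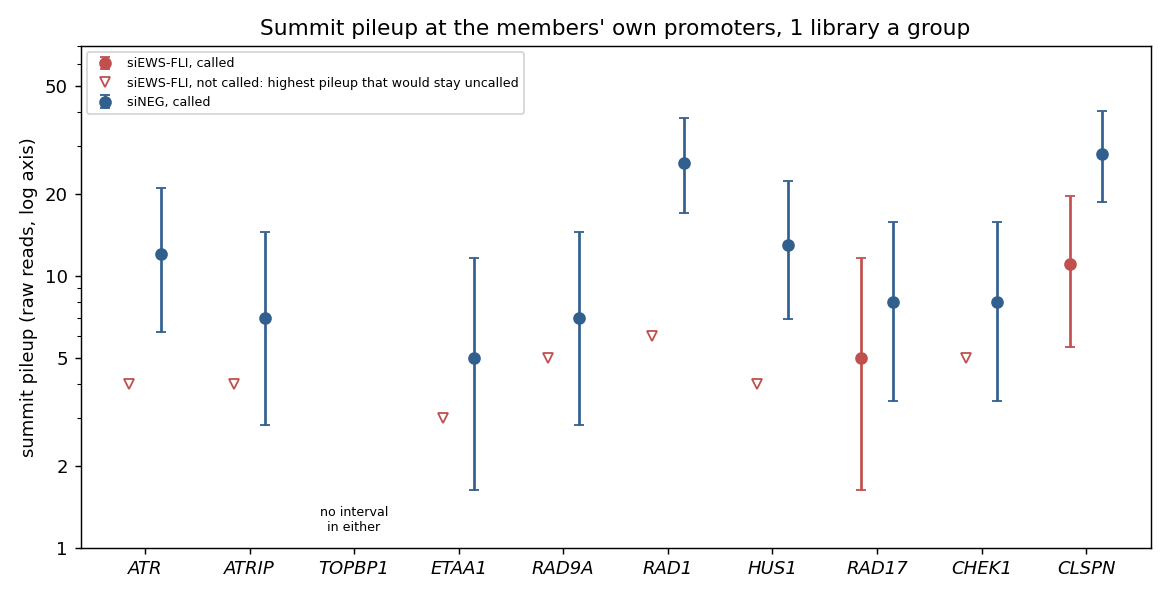
Summit pileup in raw reads (log axis) at the own promoter of each gene, siEWS-FLI in red and siNEG in blue, 1 library each, with 95% Poisson bars. Open triangles give the uncalled ceiling, the highest siEWS-FLI pileup below the calling threshold if the local background was that of siNEG; only RAD17 and CLSPN have a called siEWS-FLI site, and TOPBP1 has none in either library.

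At the head of the pathway, the gene of the kinase itself had no siEWS-FLI interval anywhere in its window. At the ATR promoter the siNEG pileup was 12 reads (6.20 to 21.0), with the summit 91 bases before the start in an interval on chromosome 3 from 142578671 to 142578996. The uncalled ceiling there, the highest siEWS-FLI pileup below the calling threshold if the local background was that of siNEG, was 4 reads. The rest of the ATR window held 4 siNEG reads inside the gene, 31567 bases from an end, and 5 reads 66.9 kb before the start, closest to PLS1. Its partner ATRIP had no siEWS-FLI promoter interval either, against 7 siNEG reads (2.81 to 14.4) on chromosome 3 from 48446482 to 48446681. That summit lay 167 bases from the ATRIP start but 82 bases from the end of CCDC51, so it belongs to both genes by position.

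The activators differed in position. TOPBP1 had no promoter interval in either library, although its start lies 57 bases from the start of TF, the transferrin gene, on the other strand. The site of its window called in both libraries was at CDV3, 26.8 kb beyond its other end, with 5 siEWS-FLI reads (1.62 to 11.7) and 25 siNEG reads (16.2 to 36.9). A further siEWS-FLI interval of 4 reads, 327 bases from the other end of CDV3 and 9.64 kb from TOPBP1, was not called with siNEG. ETAA1 had a single interval in its window, with no call with siEWS-FLI and 5 siNEG reads (1.62 to 11.7) 82 bases before its start. Its uncalled ceiling was 3 reads, so a site as weak as this one lay near the limit of detection.

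The clamp genes had siNEG promoter sites only. RAD1 had the strongest of these, with no siEWS-FLI call and 26 siNEG reads (17.0 to 38.1) on chromosome 5 from 34915303 to 34915823. Its summit fell in the gap between the starts, 124 bases from RAD1 and 83 from BRIX1. At HUS1 the siNEG pileup was 13 reads (6.92 to 22.2), 161 bases from the gene's end at the higher coordinate, again with no siEWS-FLI call. The promoter table lists no start for HUS1, so either end of the gene was allowed. RAD9A had no siEWS-FLI promoter interval and 7 siNEG reads (2.81 to 14.4) 335 bases before its start, the farthest summit of the 9. The local background there was 0.66 reads per base, and the uncalled ceiling was 5 reads.

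RAD17, the clamp loader, and CLSPN, the mediator of CHK1 activation, were the genes whose promoters were called in both libraries. RAD17 had 5 siEWS-FLI reads (1.62 to 11.7) and 8 siNEG reads (3.45 to 15.8), with summits 18 bases apart. These summits lay 153 and 171 bases from its start and also within 1 kb of the starts of AK6 and TAF9, which run the other way from a start 6 bases away. The RAD17 ratio of 0.625 (0.161 to 2.17), siEWS-FLI over siNEG, includes no change. A site of 8 siNEG reads could not show a ratio under 0.5, because no siEWS-FLI interval was called below 4 reads. CLSPN had 11 siEWS-FLI reads (5.49 to 19.7) and 28 siNEG reads (18.6 to 40.5), with summits 81 and 90 bases inside the gene and 9 bases apart. Its intervals ran on chromosome 1 from 35769777 to 35770020 with siEWS-FLI and from 35769338 to 35770021 with siNEG, so the siEWS-FLI interval lay inside the other.

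CHEK1, the effector kinase gene, had no siEWS-FLI interval in its window and 4 siNEG intervals. Its promoter site had 8 siNEG reads (3.45 to 15.8) in the widest promoter interval of the set, 856 bases on chromosome 11 from 125625692 to 125626547. The summit lay 42 bases from a listed start but 1262 bases from the annotated end of the gene, so it counts as a promoter site by starts and not by gene ends. Its uncalled ceiling was 5 reads. The stronger site in its window, 11 siNEG reads (5.49 to 19.7) 32.5 kb away, lay 888 bases from the end of STT3A, and sites of 6 and 4 reads lay at EI24.

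The depth of the siEWS-FLI library sets how much the missing calls say. Its library-wide background was 0.239 reads per base, against 0.348 with siNEG, a ratio of 0.687. Under an assumed genome size this corresponds to about 3229660 and 4702760 reads. Counting only reads outside a 10 kb mitochondrial window, under the same assumption, gave a ratio of 0.562. That window held about 1629550 siEWS-FLI and 1853910 siNEG reads. Any mitochondrial reads beyond the window stayed in both totals, so 0.562 is not a lower bound for the depth ratio of nuclear DNA. Multiplied by the lower ratio, the siNEG pileup would exceed the uncalled ceiling at 3 of the 7 siNEG-only promoters, ATR (6.74 reads against 4), HUS1 (7.30 against 4) and RAD1 (14.6 against 6). Multiplied in the same way, the lower limit of the siNEG count exceeded it at 1, RAD1 (9.54 against 6). With a depth ratio under 0.562 all of these scaled values would be smaller, and fewer might exceed the ceiling. At ATRIP, ETAA1, RAD9A and CHEK1 the scaled pileups were 3.93, 2.81, 3.93 and 4.49 reads, under ceilings of 4, 3, 5 and 5. With the higher ratio they were 4.81, 3.43, 4.81 and 5.49, less than 1 read above the ceiling at ATRIP, ETAA1 and CHEK1. The ceilings assume the siNEG local background; at the library-wide siEWS-FLI background the ceiling would be 3 reads at each site, below the scaled pileups of 3.93, 3.93 and 4.49 at ATRIP, RAD9A and CHEK1. Whether an unchanged site at these 4 promoters would have been called thus turned on the ratio and the background assumed.

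Sites of neighbouring genes made up most of what was called around the 10 genes. With siEWS-FLI 7 of the 10 intervals lay at another gene's start (or at an end of a gene with no listed start), 2 at an own promoter and 1 elsewhere. With siNEG 18 of 33 lay at another gene's start, 9 at an own promoter, 1 inside the member gene and 5 elsewhere. The same shares were not computed over the windows of all protein-coding genes, so these counts only describe the windows. Every one of the 10 windows held a siNEG interval (82.9% of all protein-coding genes had one), and 6 held a siEWS-FLI interval (59.3% of all). The windows of ATR, ETAA1, HUS1 and CHEK1 held none. The outermost siNEG interval inside a window had 5 reads 99.6 kb from HUS1, and the intervals closest to an edge on the outside were 8 siEWS-FLI and 26 siNEG reads 103 kb from RAD9A.

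**Figure D2:**
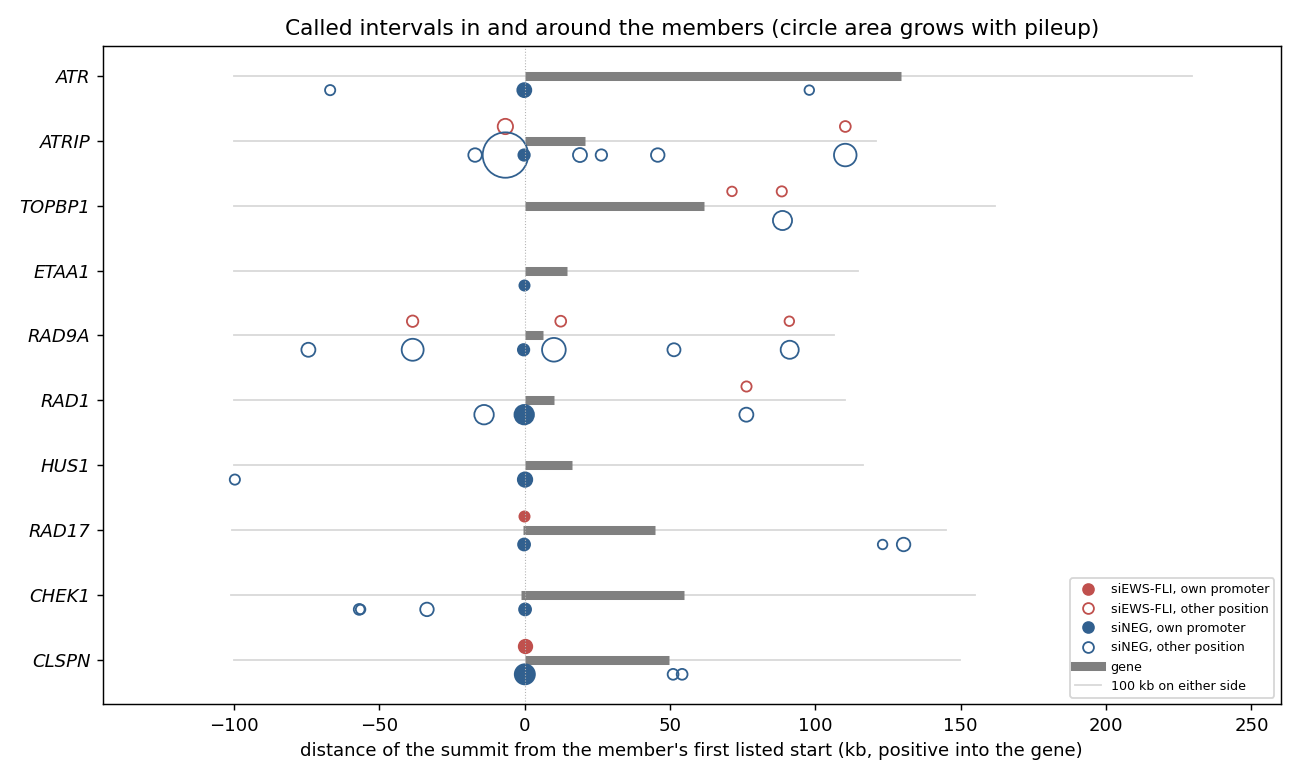
Summits of all called intervals by distance in kb from the first listed start of each gene (HUS1 from its upper end, its strand not being listed), siEWS-FLI above and siNEG below each gene. Filled circles are own promoters and circle area grows with pileup; the one large circle, 155 siNEG reads, lies near TMA7 and not at ATRIP.

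The largest signal by far was in the ATRIP window and lay at the starts of neighbouring genes. The site 114 bases from the end of TMA7, 6.59 kb from ATRIP, was within 1 kb of listed starts of both TMA7 and CCDC51. It had 15 siEWS-FLI reads (8.40 to 24.7) and 155 siNEG reads (132 to 181), and ranked 77th of the siNEG list by −log10 q. A site inside the ATRIP gene, 35 bases from the start of the exonuclease gene TREX1, had 12 siNEG reads (6.20 to 21.0) and no siEWS-FLI call. At 89.4 kb from ATRIP, a site at a listed start of PFKFB4, with UCN2 the closest gene end, had 6 siEWS-FLI and 36 siNEG reads. Of the other ATRIP sites, those closest to PLXNB1 and SHISA5 had 7 to 11 siNEG reads and no siEWS-FLI call.

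The RAD9A window was similar. POLD4, the gene of a DNA polymerase delta subunit, had 7 siEWS-FLI reads (2.81 to 14.4) and 34 siNEG reads (23.5 to 47.5) 38.5 kb before RAD9A. The strongest RAD9A neighbour, 213 bases from the end of the phosphatase gene PPP1CA, had 40 siNEG reads (28.6 to 54.5) and no siEWS-FLI call. A siEWS-FLI interval of 6 reads, 514 bases from TBC1D10C, was not called with siNEG. Near RAD1, a site at TTC23L had 5 siEWS-FLI and 12 siNEG reads, and one at the chaperone gene DNAJC21 had 26 siNEG reads (17.0 to 38.1) and no siEWS-FLI call. The remaining neighbours, SSH3 and CORO1B near RAD9A, OCLN near RAD17, UPP1 near HUS1 and C1orf216 near CLSPN, had 4 to 12 siNEG reads and no siEWS-FLI call.

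Of the 10 siEWS-FLI intervals 8 overlapped a siNEG interval (80%, 44.4 to 97.5), against 45.5% of siEWS-FLI intervals within 100 kb of any protein-coding gene. Of the 33 siNEG intervals 8 overlapped a siEWS-FLI interval (24.2%, 11.1 to 42.3), against 16.5% near any protein-coding gene. In both cases the limits take in the wider share. In these 8 shared intervals the ratio of pileups, siEWS-FLI over siNEG, had a median of 0.203, and over all 2544 shared intervals it was 0.310. These sets differ in strength, and over the series the median ratio of shared intervals was 0.75 at 8 siNEG reads and 0.267 at 20 to 49, so 0.310 is no matched value for the 8. The ratio was 0.0968 (0.0529 to 0.165) at TMA7, 0.167 (0.0574 to 0.399) at PFKFB4, 0.20 (0.0598 to 0.532) at CDV3 and 0.206 (0.0770 to 0.472) at POLD4. The limits at these 4 end below the 0.562 of reads outside the mitochondrial window, which is not a lower bound for the depth ratio. Whether depth alone would give these ratios was not tested. At CLSPN the ratio was 0.393 (0.176 to 0.814) and at TTC23L 0.417 (0.115 to 1.27), which with RAD17 are 3 sites whose limits include 0.562. Both promoters of the ATR genes called in both libraries were therefore not distinguishable from a difference in depth.

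**Figure D3:**
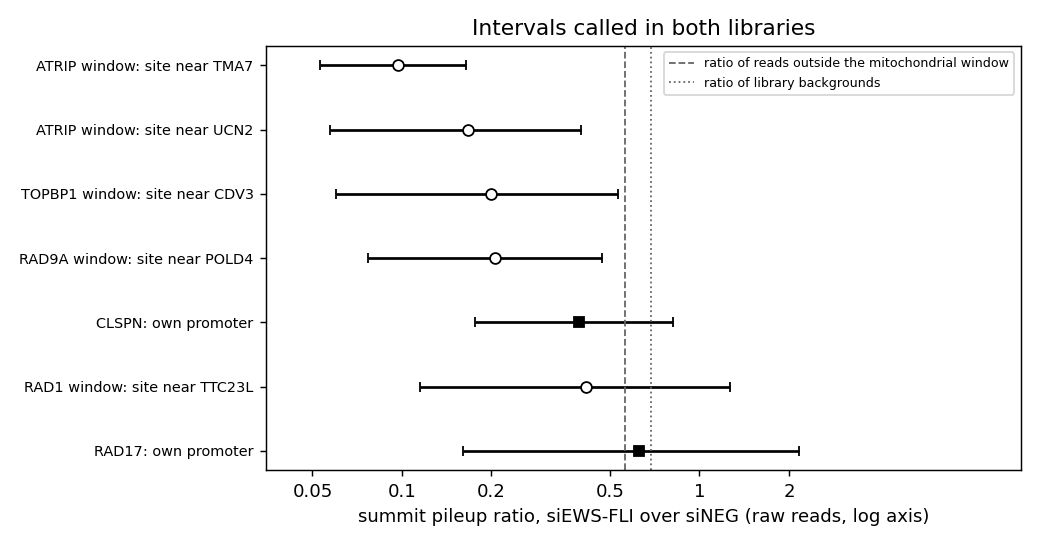
Ratio of raw summit pileups, siEWS-FLI over siNEG (log axis), with 95% limits from counting error, at 7 of the 8 intervals called in both libraries. Squares are own promoters and circles other sites; the dashed line at 0.562 and the dotted line at 0.687 mark both depth ratios, and the limits of RAD17, TTC23L and CLSPN reach the dashed line.

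Whether a promoter was called in both libraries went with its siNEG pileup across all genes. Over all protein-coding genes the share with a siEWS-FLI promoter site was 6.01% at 4 to 5 siNEG reads, 11.1% at 6 to 9, 24.2% at 10 to 19, 54.8% at 20 to 49 and 87.9% at 50 or more. ETAA1 falls in the lowest class, ATRIP, RAD9A, RAD17 and CHEK1 in the next, ATR and HUS1 in the third, and RAD1 and CLSPN in the fourth. RAD17 was thus called in both libraries in a class where 216 of 1942 genes were. RAD1 and CLSPN had nearly the same siNEG pileup, 26 and 28 reads, and of these CLSPN was called with siEWS-FLI and RAD1 was not. Of the 435 siNEG intervals of 26 to 30 reads anywhere, 36.6% were shared, so either outcome was common at that strength.

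**Figure D4:**
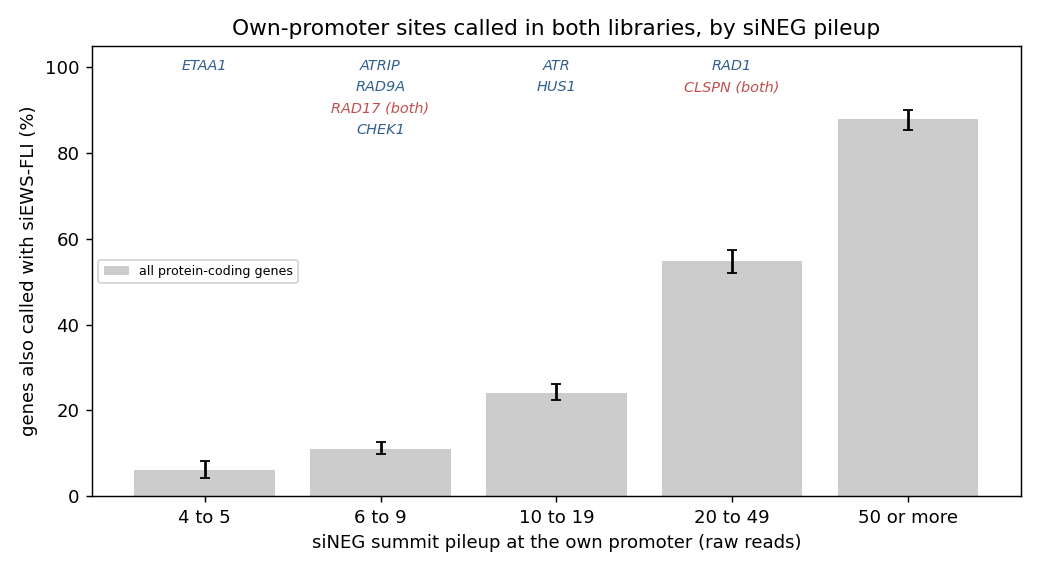
Share of protein-coding genes with a siNEG promoter site that also had a siEWS-FLI one, in percent with 95% exact binomial bars, by siNEG pileup. The 9 named genes stand over their class, in red where called in both libraries (RAD17 and CLSPN) and in blue where called with siNEG alone; the share over all genes runs from 6.01% to 87.9%.

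The 10 genes were set beside 22 others of the pathway. Among them 4 had a siEWS-FLI promoter site and 15 a siNEG one, where 12.3% and 34.7% of all protein-coding genes did. The partners at single-stranded DNA and the clamp (RPA1, RPA2, RPA3, RHNO1, RAD9B, HUS1B) had 0 of 6 with siEWS-FLI and 2 of 6 with siNEG, the stronger being RPA2, a subunit of RPA, with 16 siNEG reads (9.15 to 26.0). The replication factor C genes RFC2 to RFC5 had 0 of 4 and 2 of 4, with 28 siNEG reads (18.6 to 40.5) at RFC2. The fork protection genes TIMELESS, TIPIN and WDHD1 had 0 of 3 and 3 of 3, the strongest being TIMELESS with 8 siNEG reads (3.45 to 15.8). The targets and cell cycle genes (CDC25A, CDC25C, WEE1, CDK2, CDC7, DBF4) had 1 of 6 and 5 of 6. There CDC25C, the gene of a phosphatase that CHK1 inhibits, had 17 siNEG reads (9.90 to 27.2) at a site closest to FAM53C. CDK2, the single gene of the list with a siEWS-FLI promoter site alone, had 9 siEWS-FLI reads (4.12 to 17.1). Either gene end was allowed for CDK2, WEE1, RPA2, RPA3 and RHNO1, which have no listed start.

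The kinases of the parallel damage response were called in both libraries. ATM, CHEK2 and PRKDC had promoter sites in both libraries, 3 of 3 each, where 32.4% of all genes with a siNEG promoter site also had a siEWS-FLI one. By siNEG pileup this share was 87.9% in the class of ATM and 24.2% in that of CHEK2 and PRKDC. ATM, the kinase that answers double-strand breaks, had 12 siEWS-FLI reads (6.20 to 21.0) and 57 siNEG reads (43.2 to 73.9). CHEK2, its effector kinase gene, had 9 (4.12 to 17.1) and 13 (6.92 to 22.2), at a site closest to HSCB, and PRKDC, the catalytic subunit of DNA-dependent protein kinase, had 6 (2.20 to 13.1) and 12 (6.20 to 21.0). CHEK2 and PRKDC thus had 13 and 12 siNEG reads and a siEWS-FLI call, where HUS1 and ATR had 13 and 12 and none. CHEK2 and PRKDC, like CDK2, are named here after their values were seen. Either end of PRKDC was allowed, as it too has no listed start. Whether these kinases differ from the ATR genes cannot be tested with 1 library a group.

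In sequence all 9 promoters searched held GGAA and the SP site GGGCGG, while motifs rare among all promoters were absent from all or nearly all of them. The window was 250 bases before to 50 after the first listed start, searched on both strands in 15843 protein-coding genes, 9 of the 10 included and HUS1 not. GGAA was in 9 of 9 member promoters and in 95.1% of all promoters, with 7 matches at ATR, TOPBP1 and CHEK1, 5 at RAD1, 3 at ETAA1, RAD9A and CLSPN, and 2 at ATRIP and RAD17. The median was 3 matches in both sets, and TOPBP1, with no site, was among the highest. The longer ETS site CCGGAAGT, which holds a GGAA, was in 0 of 9 and in 6.19% of all promoters. Of all promoters with it 87.1% had a siNEG promoter site, against 33.6% of those without, so the 8 siNEG sites at searched member promoters lay at promoters of the second kind. Only the exact letters were searched. Close variants, such as GCGGAAGT before the ETAA1 start, were not counted, so its absence does not mean that similar ETS sites are lacking. The repeat GGAAGGAA was in 0 of 9 and in 3.58% of all.

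Other promoter motifs were the SP site GGGCGG in 9 of 9 (58.5% of all promoters), the CCAAT box CCAAT in 5 of 9 (36.4%), a site of the factor NRF1 in 0 of 9 (1.75%), and the E2F sites TTTGGCGC in 0 of 9 (0.890%) and TTTCGCGC in 1 of 9, TOPBP1 (0.814%). Of all promoters with GGGCGG 47.0% had a siNEG promoter site, against 22.8% of those without. For CCAAT these shares were 42.6% and 33.7%, and for GGAAGGAA they went the other way, 34.2% and 37.1%. A match is a description of these letters and not a binding site. Another listed start on the opposite strand lay within 1 kb at 5 of the 9 genes with a listed start, TOPBP1, RAD1, RAD17, CHEK1 and CLSPN, against 25.9% of all. The end of CCDC51 near the ATRIP promoter was not counted, as no CCDC51 start is listed there. Both promoters called in both libraries, RAD17 and CLSPN, were among these 5, and so were RAD1 and CHEK1, which were called with siNEG alone.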

How the data were processed

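CUT&Tag libraries from TC32 cells were made with a commercial kit and amplified by 14 and then 20 PCR cycles, per the labels' protocols. Per the submitters' processing notes, hg38 was the build and the tools, listed without roles, were MACS2 2.2.9.1, Bowtie2 2.4.5 and Trim Galore 0.6.6. Any control library or handling of duplicates is not given in the sources used here. Peaks were deposited per library. The deposited fold compares the summit with its local background, and the deposited −log10 p-value and −log10 q-value belong to each summit.

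Lines sharing an interval were merged, keeping the highest −log10 q, on chromosomes 1 to 22, X and Y. The deposited fold was taken as the pileup plus 1 over the local background plus 1. The summit pileup was solved as a whole number from this fold and the deposited p-value under a Poisson tail. Of merged intervals in each list, 100% gave one within 0.001 in log10 p (in proportion above 10). Where more than 1 whole number fitted, the one whose background was at least the library's own was taken. The solver was tested on simulated data. Pileups are raw reads and not scaled. Read totals assume 2700000000 mappable bases. The uncalled ceiling is the highest pileup whose −log10 p stays under the smallest one called with siEWS-FLI, 4.49.

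Starts came from a RefSeq promoter table for 15843 genes; for the other 4194 either gene end was used. Overlap means at least 1 shared base. Limits are exact Poisson, exact binomial (Clopper-Pearson) or, for ratios, exact conditional binomial. Python 3.11.15 and SciPy 1.17.1 were used. All 10 genes are named, with the closest gene end of each site and the strongest gene of each pathway list. Members, lists, motifs and alternatives were chosen with earlier results of these data known. Of the other settings tried, 35 were listed at the outset and 2 were chosen after seeing the data. One neighbouring site is not reported here.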

Additional observations from a re-analysis of the deposited data

How the results depend on the processing

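Of 37 values recomputed under another choice, 22 stayed close to the reported one (counts within 1.5 times, shares within their limits) and 15 did not. With −log10 q held to 5 or more, the windows held 2 siEWS-FLI and 19 siNEG intervals, 10.5% of the siNEG ones were shared, 1 gene had a siEWS-FLI and 5 a siNEG promoter site, and 2 windows held a siEWS-FLI interval. With intervals wider than 200 bases alone there were 4 siEWS-FLI intervals in 3 windows and 1 siEWS-FLI promoter site. With the siNEG list limited to its 6370 strongest intervals there were 16 siNEG intervals, of which 43.8% were shared, and 4 siNEG promoter sites. Within 10 kb there were 5 siEWS-FLI and 16 siNEG intervals. At a reciprocal overlap of 50% the shared part was 6.06%. Among these settings the stricter ones drop weak sites by construction. Promoter counts with starts at 500 bases or 2 kb, or by any overlap, stayed at 2 with siEWS-FLI and 9 with siNEG; with gene ends in place of starts, chosen after seeing the data, they were 2 and 8. The summed pileup of the RAD17 and CLSPN promoters stood at a ratio of 0.444 (0.230 to 0.822), siEWS-FLI over siNEG. Scaled by the library backgrounds it was 0.647 (0.335 to 1.20), with limits that include 1. No paired analysis was possible because each group has 1 library. Depth limits the siNEG-only promoters: at 1 of 7, RAD1, did the lower counting limit, scaled by 0.562, exceed the uncalled ceiling. The ratio of 0.562 is not a lower bound for depth. An interval that was not called is not shown to be empty.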
